A study of Mus musculus with 6 samples.

Results

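Type I interferon stimulated genes were described here in the immune cells of mouse tumours: a list of 39 genes that cells switch on when they sense interferon alpha or beta, chosen by gene symbol. Of the 39, 37 matched a symbol among the 32285 genes of the count matrices, and Mx1 and Mx2 were not analysed here. Each library held live CD45+ cells, the marker of white blood cells, sorted at day 25 from MC38 tumours, a mouse colon carcinoma cell line grown under the skin. The ctr mice (3 libraries) carried wild-type Ctcf in regulatory T cells (Treg cells), and the cko mice (3 libraries) were tamoxifen-inducible Ctcf knockouts; CTCF is a DNA-binding protein that shapes chromosome loops. The labels call the 3 libraries of a group biological replicates, name neither the Cre driver nor the deleted exons, and do not say whether ctr mice received tamoxifen. Cells were assigned by marker gates on their unique molecular identifiers (UMIs, single captured RNA molecules) to 6 classes: Treg, conventional CD4 T, CD8 T, natural killer (NK), macrophage and conventional dendritic cells (cDC).

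Type I interferons bind the receptor IFNAR, whose kinases JAK1 and TYK2 phosphorylate STAT2. With IRF9 this protein is part of a complex that binds a short DNA element, the interferon-stimulated response element (ISRE), and turns on the genes of this list. Their products block viral RNA and protein synthesis, sense nucleic acids, tag proteins with the ubiquitin-like ISG15, and feed back on the pathway; in tumours the programme is known from macrophages, dendritic cells and T cells. Interferon gamma induces part of the same genes through the GAS element.

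The libraries held 45322797 to 55515267 UMIs each, and 21192 of 37148 kept cells (57.0%) met a single gate. The summed counts per class and library ranged from 164524 UMIs (conventional CD4 cells of ctr 2, 39 cells) to 20200896 UMIs (CD8 cells of cko 3, 2241 cells), so levels of low genes were least precise in conventional CD4 cells and cDC. Ctcf itself measured 79.1, 83.7 and 93.0 CPM (a gene's share of all UMIs of a class and library, scaled to 1000000) in Treg cells of ctr 1, 2 and 3 and 62.6, 85.2 and 81.7 CPM in those of cko 1, 2 and 3. The groups overlapped (log2 fold change -0.17, SE 0.13, edgeR adjusted p = 0.591), and since the deleted exons are not named these counts do not check the deletion. Libraries cko 1 and cko 3 shared 197 paired T cell receptor clonotypes, which covered 82.0% and 69.8% of their receptor-bearing cells, against at most 3 shared in any other pair; calls that were lost with these libraries added together are therefore given. Tests without cko 2 left cko 1 and cko 3 as the whole cko group, so calls gained there rest on libraries that may not be independent. Counts of members called with a library left out are given without the share of all genes called in the same setting. Any pair of libraries shared 33 to 71 kept cell barcodes. The summed level of 8 dissociation stress genes (none at 0) was lower in cko without overlap in Treg (7699 to 11489 against 4659 to 5986 CPM), conventional CD4 (12971 to 20361 against 5518 to 9314 CPM), CD8 (5757 to 8921 against 2745 to 4556 CPM) and macrophage sums (12002 to 12300 against 6421 to 8396 CPM). The part of these stress genes in the results below was not tested. A list of 5 B and plasma cell markers (3 at 0 in all sums) reached 75.8 to 204 CPM in every class of cko 2 and at most 3.94 CPM elsewhere.

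The promoters of 5 members with a called difference between genotypes or classes below are shown as examples (Isg15, Ifit3, Ifit3b, Oas1a and Rsad2). Each is the 200 bases before the gene's start, 5′ to 3′ on the gene's strand (RefSeq, GRCm38.p6), with matches to the ISRE core (GAAA, any 2 bases, GAAA, on either strand, overlapping matches counted) in capitals.
Isg15 (chr4:156200819-156201018, minus strand): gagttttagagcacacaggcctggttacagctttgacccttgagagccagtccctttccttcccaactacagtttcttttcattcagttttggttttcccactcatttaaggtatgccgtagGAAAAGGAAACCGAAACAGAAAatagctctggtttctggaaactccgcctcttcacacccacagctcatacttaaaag
Ifit3 (chr19:34583329-34583528, plus strand): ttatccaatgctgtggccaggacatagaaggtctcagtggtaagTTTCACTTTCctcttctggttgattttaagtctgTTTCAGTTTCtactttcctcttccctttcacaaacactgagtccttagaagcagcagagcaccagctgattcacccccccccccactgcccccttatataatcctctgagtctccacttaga
Ifit3b (chr19:34607757-34607956, plus strand): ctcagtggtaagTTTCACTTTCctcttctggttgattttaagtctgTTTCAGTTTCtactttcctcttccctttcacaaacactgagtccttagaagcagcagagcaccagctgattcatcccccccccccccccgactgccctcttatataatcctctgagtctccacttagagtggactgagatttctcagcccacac
Oas1a (chr5:120907526-120907725, minus strand): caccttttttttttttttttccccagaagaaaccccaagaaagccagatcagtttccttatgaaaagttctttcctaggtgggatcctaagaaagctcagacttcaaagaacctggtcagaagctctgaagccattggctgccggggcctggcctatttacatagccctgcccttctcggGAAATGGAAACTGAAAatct
Rsad2 (chr12:26456453-26456652, minus strand): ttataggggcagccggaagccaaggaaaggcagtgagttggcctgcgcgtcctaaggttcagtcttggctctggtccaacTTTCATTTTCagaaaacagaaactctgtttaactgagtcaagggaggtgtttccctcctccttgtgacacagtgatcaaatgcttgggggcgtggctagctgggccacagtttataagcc
Isg15 held 3 overlapping matches, the first 78 bases before the start, and Oas1a held 2 overlapping matches 20 and 14 bases before it. Ifit3 and Ifit3b held the same pair of matches with the same spacing, and Rsad2 held 1. In windows of 300 bases (250 before and 50 after the start), the ISRE core was present in 15 of the 30 members with a promoter in the table, against 3.99% of 27025 genes. Of the other members called between genotypes, Oasl2 and Trim25 had 0 matches there and Slfn5 had 1. Ifit2, called in the difference between macrophages and CD8 cells, also had 0. The 5 promoters shown, which all hold a match, thus do not stand for all called members. A match to the GAS pattern TTCNNNGAA was present in 5 of the 30 members (16.7%), against 9.55% of all genes. Some members are neighbours: the 6 members on chromosome 5 are the oligoadenylate synthases and their relatives, in 2 groups, while the 6 on chromosome 11 lie apart except for Slfn5 and Slfn8, and the 4 Ifit genes lie together on chromosome 19 (GRCm38, GENCODE vM21; Ifit2 starts at 34550694 and Ifit1 ends at 34650009). Counts of near-identical copies are uncertain: 51.2% of the 50-base words of Ifit3 transcripts occur in Ifit3b and 57.6% of those of Oas1a occur in Oas1g, so reads could be split or lost between them. Parp9 and Dtx3l overlap on opposite strands.

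The interferon score was defined as the mean over the 37 members of log2(CPM + 1) in a class of 1 library. It was highest in macrophages of 6 of 6 libraries, and next highest in conventional CD4 cells of 5 of 6 (in cko 2 cDC came next). NK cells had the lowest score in 5 of 6 libraries, CD8 cells in cko 2. In macrophages the score was 6.57, 7.14 and 6.99 in ctr 1, 2 and 3 and 6.79, 6.31 and 6.93 in cko 1, 2 and 3. The groups overlapped, with means of 6.90 ± 0.29 and 6.67 ± 0.32 (SD, n = 3 each). In Treg cells the score was 5.11, 5.81 and 5.79 in ctr and 5.47, 4.78 and 5.47 in cko, with means of 5.57 ± 0.40 and 5.24 ± 0.40. In conventional CD4 cells it was 5.99, 6.49 and 6.56 in ctr and 6.09, 5.14 and 6.13 in cko, with means of 6.35 ± 0.31 and 5.79 ± 0.56. Both T cell classes overlapped between the groups and had their lowest value in cko 2. Of the gated Treg cells of cko 2 54.1% fell in Treg clusters, against 84.0% to 90.3% in the other libraries, and 5 neutrophil markers reached 84.9 CPM there against at most 2.63 CPM. The part of either in the low value was not tested; in cluster-based classes the difference in mean score was -0.37 in Treg and -0.41 in conventional CD4 cells. In CD8 cells the score was 4.63, 5.07 and 5.38 in ctr and 5.55, 4.42 and 5.49 in cko (5.03 ± 0.38 and 5.15 ± 0.63). In NK cells it was 4.24, 4.92 and 4.83 in ctr and 5.08, 4.74 and 5.24 in cko (4.66 ± 0.37 and 5.02 ± 0.25). In cDC it was 5.39, 5.89 and 5.61 in ctr and 5.84, 5.39 and 5.81 in cko (5.63 ± 0.25 and 5.68 ± 0.25). These 3 classes overlapped as well, so the groups overlapped in all 6 classes.

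**Figure D1:**
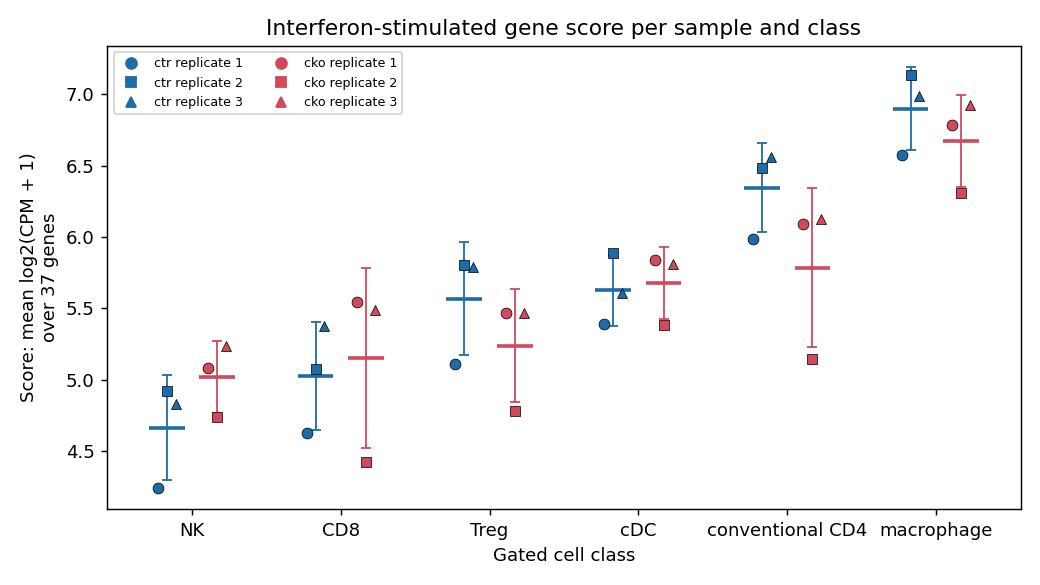
Interferon score (mean log2(CPM + 1) over 37 genes, y axis) of each library in the 6 gated classes (x axis), with ctr in blue and cko in red, a marker shape per replicate, and bars for the mean and SD of 3 libraries. Replicate 1 of ctr (blue circles) and replicate 2 of cko (red squares) lie lowest within their group, and within each library macrophages lie above every other class.

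Within each group the same library had the lowest score in all 6 classes. The other cko libraries, cko 1 and cko 3, shared clonotypes that covered 82.0% and 69.8% of their receptor-bearing cells. They may therefore not be independent of each other, and the part of this in the distance of cko 2 was not tested. Libraries ctr 1 and cko 2 had the 2 lowest scores in every class, and the whole range over 6 libraries was 1.02 in Treg, 1.42 in conventional CD4, 1.12 in CD8, 0.83 in macrophages and 0.50 in cDC. Single genes, from which the score is made, mostly had the same order, least so in cDC. In ctr 1, 35 of 35 tested members in Treg cells, 33 of 36 in CD8 cells and 35 of 37 in macrophages had their lowest ctr value, where 40.7%, 40.2% and 38.9% of all tested genes did. In cko 2, 33 of 35, 36 of 36 and 35 of 37 members had their lowest cko value, where 35.5%, 42.2% and 35.2% of all tested genes did. In conventional CD4 and NK cells 27 of 32 and 30 of 33 members were lowest in ctr 1, against 41.7% and 40.5% of all tested genes. In cko 2 it was 30 of 32 and 25 of 33 members, against 41.0% and 39.5%. In cDC 24 of 36 were lowest in each of ctr 1 and cko 2 (34.1% and 25.7% of all tested genes), and 11 in ctr 3 (36.6%). With 1 library left out in turn, the difference in mean score (cko minus ctr) ranged from -0.56 to -0.10 in Treg, -0.74 to -0.24 in conventional CD4, -0.07 to 0.49 in CD8, 0.15 to 0.50 in NK, -0.39 to -0.04 in macrophage and -0.07 to 0.20 in cDC sums. The sign in CD8 cells and cDC thus turned with a single library, and in CD8 cells it also turned with cko 1 and cko 3 added (-0.06). The B and plasma cell markers named above were raised only in the sums of cko 2, and their part in its low scores was not tested.

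Single genes were then compared between classes within the ctr libraries. Class comparisons kept the library as a block in edgeR's quasi-likelihood test with Benjamini-Hochberg adjustment over all tested genes and called genes at an adjusted p under 0.05, as did all tests below. Macrophages exceeded CD8 cells in 35 of 37 members (36.3% of all tested genes were higher and 73.3% differed), with a median log2 difference of 1.76 against -0.03 over all genes. The largest log2 differences were those of Oas1g (7.60), Phf11d (6.998), which encodes a PHD finger protein, Oasl1 (5.38) and Oasl2 (5.19), and Oas1g rested on only 2 to 5 UMIs per library in CD8 cells. Isg20, an exonuclease that degrades single-stranded RNA, was the 1 member lower in macrophages (log2 difference -0.51, adjusted p = 0.0296), and it lost the call without ctr 1 or without ctr 3. Samd9l, a translation inhibitor, did not pass (-0.04). In cDC 34 of 37 members were lower than in macrophages (24.8% of all tested genes were lower, 47.1% differed; median -1.23 against -0.02), led by Rsad2 (-3.87), Oas3 (-2.51), Cmpk2 (-2.497) and Ifit3 (-2.35). Irf9, Phf11b and Ifi35 did not pass there.

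Treg cells stood below conventional CD4 cells in 26 of 36 members in ctr (7.85% of all tested genes were lower, 10.4% higher, 18.2% in all), with a median log2 difference of -0.79 against 0.02 over all genes and none higher. All 4 IFIT genes were among them, and Ifit3 (-2.28, adjusted p = 2.41e-37), Ifit3b (-2.24), Ifit2 (-1.84) and Slfn5 (-1.64) led. Without ctr 3, which held 164 of the conventional CD4 cells against 59 and 39 in the other ctr libraries, 12 members passed; DESeq2 called 13. NK cells were lower than CD8 cells in 24 of 36 members and higher in 4 (22.6% and 21.0% of all tested genes, 43.7% in all), with a median of -0.44 against -0.01. The members that were higher in NK cells were Ifi44 (2.86), Oasl1 (2.08), Usp18 (0.96) and Oas1a (0.62), and the lowest were Ifit3b (-4.33), Ifit3 (-3.04), Isg15 (-1.80) and Ifit1 (-1.79). Without ctr 3 the lower count was 15. The RNA of 9 macrophage markers in the lymphoid sums reached 0.857% to 7.63% of its level in macrophages, and its part in the lymphoid values was not tested.

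Between genotypes few members passed the test in any class, and the direction of the medians differed between classes. In Treg cells 1 of 35 tested members was lower in cko and none higher, where 1.82% of all tested genes changed, 1.15% lower and 0.672% higher. The median log2 fold change (cko over ctr) was -0.37 against 0.01 over all genes, 33 members had a negative sign, and 2 members did not overlap between groups and were lower (10.3% of all genes did so). The count was 0 without ctr 2, ctr 3, cko 1 or cko 3 and with cko 1 and cko 3 added, and 2 without cko 2. None of 32 passed in conventional CD4 cells, where 0.204% of all genes changed. DESeq2 also called 0 there, while 12 members had an unadjusted p under 0.05, all lower, the smallest adjusted p was 0.336, and 1 member passed without cko 2. The median was -0.68 against 0.01, 31 members had a negative sign, and 10 did not overlap and were lower (4.64% of all genes), none higher (7.43%).

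In CD8 cells the median had the opposite sign. None of 36 tested members passed in edgeR or DESeq2, where 2.53% of all genes changed (1.29% lower), 1 had an unadjusted p under 0.05 (lower), and the smallest adjusted p was 0.218. The median log2 fold change was 0.14 against 0.00, with 28 positive signs, and 1 member was lower without overlap (9.74% of all genes). Without cko 2, 1 member passed as higher. In NK cells 2 of 33 were higher in cko and none lower, where 6.76% of all genes changed (3.49% higher, 3.27% lower), and the median was 0.24 against 0.02 with 30 positive signs. In NK sums 7 members were higher without overlap, against 25.0% of all genes. The count was 1 without ctr 1, ctr 3 or cko 1 and with cko 1 and cko 3 added, and 0 without cko 3. NK cells were also shallower in cko, with a median of 2754 to 5516 UMIs per cell against 7755 to 10923 in ctr, and 5 T cell markers summed to 187 to 258 against 144 to 180 CPM; the part of either in these values was not tested.

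In macrophages 1 of 37 members was higher in cko and none lower, where 19.5% of all tested genes changed (10.8% higher, 8.68% lower). The median was -0.09 against -0.01 over all genes. In macrophage sums 4 members were lower and 1 was higher without overlap, against 25.5% and 14.0% of all genes. Without cko 2 the higher count was 3, and without ctr 1 the lower count was 6. The 9 macrophage markers themselves summed to 27675 to 32374 CPM in ctr and 13975 to 16941 CPM in cko, and their part in these values was not tested. In cDC none of 36 passed in edgeR or DESeq2, where 1.85% of all genes changed (1.18% higher, 0.668% lower). Of these 36, 4 had an unadjusted p under 0.05 (3 higher), 3 were higher and 1 lower without overlap (10.8% and 9.86% of all genes), and without cko 2 the higher count was 2. The cDC median was 0.11 against 0.01, and the smallest adjusted p was 0.08995.

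**Figure D2:**
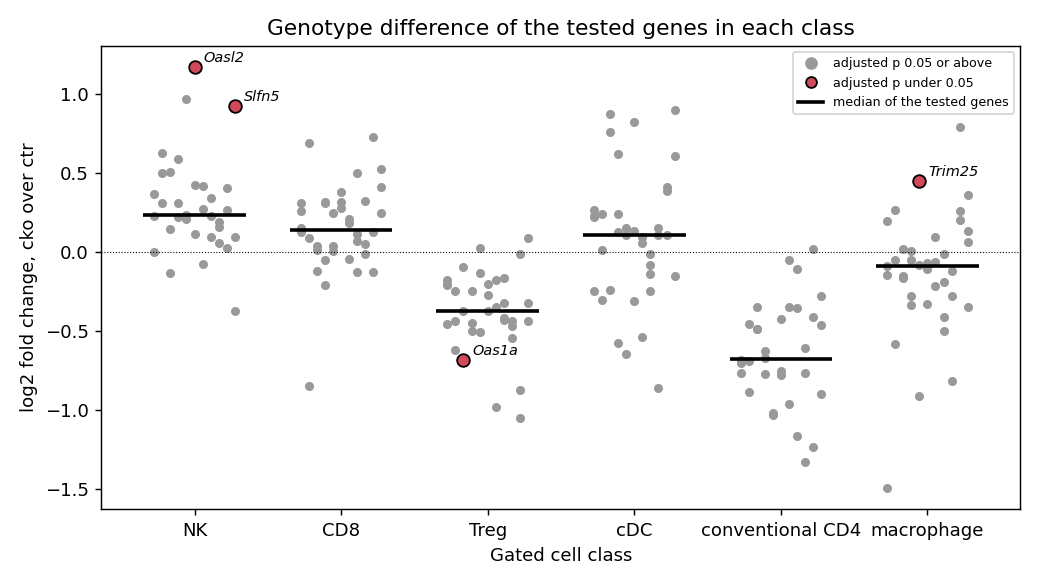
Log2 fold change (cko over ctr, y axis) of each tested member (dots) in the 6 classes (x axis), with a line at the class median and the names of the members past the adjusted p of 0.05. Most dots lie below 0 in Treg and conventional CD4 cells and above 0 in CD8 and NK cells, and the labelled genes are Oas1a in Treg, Oasl2 and Slfn5 in NK and Trim25 in macrophages.

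Values below are listed in the order of replicates 1, 2 and 3 of each group, as CPM of the summed UMIs of a class, so they compare libraries within a gene and not the level of one gene with another. The ubiquitin-like system comes first. Isg15, the ubiquitin-like protein that is attached to newly made proteins, measured 139, 366 and 387 CPM in ctr and 409.8, 199 and 344 CPM in cko in Treg cells. Its level in conventional CD4 cells was 444, 1033 and 981 CPM in ctr and 709, 229 and 541 CPM in cko. For Isg15 the CD8 sums were 138, 237 and 311 CPM in ctr and 439, 125 and 368 CPM in cko. In all 3 T cell classes the lowest values were those of ctr 1 and cko 2, and the groups overlapped. NK sums of Isg15 were 43.9, 82.5 and 77.3 CPM in ctr and 122, 69.7 and 137 CPM in cko. For Isg15 in macrophages the values were 859, 1428 and 1424 CPM in ctr and 1852, 894 and 1731 CPM in cko. The cDC sums gave 409.7, 539 and 402 CPM in ctr and 1023, 281 and 734 CPM in cko for Isg15. Among these 3 classes ctr 1 or cko 2 was again lowest, cko 1 and cko 3 were the highest libraries, and the groups overlapped. The log2 fold changes of Isg15 were 0.09 (SE 0.45) in Treg cells, -0.77 (SE 0.50) in conventional CD4 cells, 0.41 (SE 0.55) in CD8 cells, 0.59 (SE 0.33) in NK cells, 0.36 (SE 0.36) in macrophages and 0.62 (SE 0.50) in cDC, with edgeR adjusted p from 0.345 to 0.951. None passed, though Isg15 in cDC did as higher in edgeR without cko 2 (0.0133), where cko 1 and cko 3 were the whole cko group.

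Usp18, the protease that removes ISG15 and dampens IFNAR signalling, measured 26.6, 58.1 and 61.6 CPM in ctr and 38, 25.4 and 40.99 CPM in cko in Treg cells. Conventional CD4 sums of Usp18 were 51.98, 103 and 137 CPM in ctr and 97.3, 42.8 and 50.02 CPM in cko. For Usp18 the CD8 sums were 23.2, 49.7 and 68.7 CPM in ctr and 67.9, 26.6 and 62.4 CPM in cko. The groups overlapped in each, and cko 2 was among the 2 lowest libraries of all 3 classes. NK sums of Usp18 were 58.1, 96.9 and 119 CPM in ctr and 147, 88.8 and 135 CPM in cko. For Usp18 in macrophages the values were 76.6, 157 and 143 CPM in ctr and 95.7, 50.1 and 119 CPM in cko. In cDC they were 57.5, 98.1 and 97.5 CPM in ctr and 103, 67.7 and 124 CPM in cko. Here too the groups overlapped, and ctr 1 or cko 2 was lowest. In log2 terms Usp18 differed between genotypes by -0.50 (SE 0.33) in Treg cells, -0.75 (SE 0.38) in conventional CD4 cells, 0.13 (SE 0.52) in CD8 cells, 0.31 (SE 0.33) in NK cells, -0.41 (SE 0.41) in macrophages and 0.22 (SE 0.28) in cDC (edgeR adjusted p from 0.524 to 0.925). None passed. Trim25, a ubiquitin ligase that activates the RNA sensor RIG-I, measured 200.3, 179.7 and 184 CPM in ctr and 251, 224 and 251 CPM in cko in macrophages. All 3 cko libraries were above all 3 ctr libraries, and Trim25 rose in cko by a log2 fold change of 0.45 (SE 0.10, adjusted p = 0.00761) in edgeR, the only member called in macrophages. It stayed past the threshold in 13 of 13 alternative analyses, with adjusted p from 0.000731 to 0.0470. In the other 5 classes Trim25 did not pass. Herc6, the mouse ligase that attaches ISG15, measured 24.2, 25.2 and 27.2 CPM in ctr and 57.9, 38.5 and 46.8 CPM in cko in cDC, where the groups did not overlap (log2 fold change 0.90, SE 0.23, adjusted p = 0.08995, edgeR).

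The IFIT proteins bind foreign RNA ends and block translation. Ifit1 measured 32.6, 90.5 and 71.04 CPM in ctr and 62.6, 29.3 and 53.2 CPM in cko in Treg cells. Conventional CD4 cells had 114, 164 and 205 CPM in ctr and 142, 42.8 and 119 CPM in cko. For Ifit1 the CD8 sums were 19.8, 53.8 and 57.9 CPM in ctr and 94.7, 23.7 and 96.03 CPM in cko. In these classes ctr 1 and cko 2 were lowest and the groups overlapped, with cko 1 and cko 3 highest in CD8 cells. NK sums of Ifit1 were 5.96, 15.1 and 17.8 CPM in ctr and 18.6, 13.4 and 30.8 CPM in cko. For Ifit1 in macrophages the values were 44.5, 91.1 and 71.3 CPM in ctr and 45.9, 26.9 and 56.4 CPM in cko. In cDC Ifit1 gave 21.4, 22.5 and 16.7 CPM in ctr and 39.2, 6.999 and 3.60 CPM in cko. NK cells had ctr 1 lowest, macrophages cko 2, and cDC cko 3; all 3 overlapped. Ifit1 had log2 fold changes of -0.44 (SE 0.43) in Treg cells, -0.78 (SE 0.43) in conventional CD4 cells, 0.69 (SE 0.69) in CD8 cells, 0.63 (SE 0.49) in NK cells, -0.58 (SE 0.35) in macrophages and -0.31 (SE 0.64) in cDC, at edgeR adjusted p from 0.301 to 0.873. None passed. The cDC change of Ifit1 rested on few UMIs and ranged from -1.90 to 0.17 with 1 library left out.

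Ifit3 measured 25.5, 54.4 and 59.2 CPM in ctr and 64.8, 22.1 and 56.7 CPM in cko in Treg cells. Its level in conventional CD4 cells was 177, 243 and 245 CPM in ctr and 130.3, 22.8 and 129.8 CPM in cko. For Ifit3 the CD8 sums were 39.2, 76.3 and 86.5 CPM in ctr and 88.9, 27.1 and 90.05 CPM in cko. In conventional CD4 cells all cko values were below all ctr values; in Treg and CD8 cells the groups overlapped. NK sums of Ifit3 were 4.15, 12.3 and 10.1 CPM in ctr and 17.3, 15.3 and 21.4 CPM in cko. For Ifit3 in macrophages the values were 86.4, 194 and 168 CPM in ctr and 76.3, 48.6 and 98.2 CPM in cko. The cDC sums gave 28.7, 31.1 and 29.9 CPM in ctr and 17.2, 10.5 and 23.4 CPM in cko for Ifit3. All cko values were above ctr in NK cells and below ctr in cDC, and the groups overlapped in macrophages. The log2 fold changes of Ifit3 were 0.02 (SE 0.47) in Treg cells, -1.33 (SE 0.65) in conventional CD4 cells, 0.00 (SE 0.55) in CD8 cells, 0.97 (SE 0.34) in NK cells, -0.91 (SE 0.38) in macrophages and -0.86 (SE 0.30) in cDC, with edgeR adjusted p from 0.105 to 0.997. None of these 6 passed. Ifit3 did pass as higher in NK cells without the filter (edgeR adjusted p = 0.00999) and with the replicate block (0.0312). It also passed in edgeR as lower in macrophages without ctr 1 (0.0184) and in conventional CD4 cells without cko 2 (0.0242). In that last fit cko 1 and cko 3 were the whole cko group. Ifit2 measured 89.2, 156 and 151 CPM in ctr and 72.9, 53.8 and 84.2 CPM in cko in macrophages, all cko values below ctr (log2 fold change -0.82, SE 0.24, adjusted p = 0.0501, edgeR), just short of the threshold. Its neighbour Ifit3b measured 27.1, 78.8 and 60.9 CPM in ctr and 20.01, 8.27 and 25.8 CPM in cko there, again without overlap (log2 fold change -1.498, SE 0.55, adjusted p = 0.133, edgeR). The median log2 fold change of the 4 IFIT genes in macrophages was -0.87, with none of 4 called, while it was 0.24 in CD8 cells and 0.63 over the 3 tested in NK cells.

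Oligoadenylate synthases make the messenger that activates RNase L, and the related OASL proteins bind RNA sensors. Oas1a measured 78.6, 109 and 95.1 CPM in ctr and 59.2, 52.4 and 65.7 CPM in cko in Treg cells. All cko values were below all ctr values, and Oas1a fell in cko (log2 fold change -0.69, SE 0.14, adjusted p = 0.0491, edgeR). The call was lost without ctr 2, ctr 3, cko 1 or cko 3 (edgeR adjusted p from 0.119 to 0.172) and with cko 1 and cko 3 added (0.145). It was also lost with RLE size factors (0.0505), the replicate block (0.0819), doublets kept (0.0949) and in cluster-based classes (0.121), all in edgeR. The call of Oas1a thus held in 4 of 13 alternatives. In Treg cells the median over the 5 tested synthases was -0.62, all 5 negative, 1 called. Oasl2 measured 20.5, 41.2 and 32.5 CPM in ctr and 25.05, 15.9 and 27.9 CPM in cko in Treg cells. Conventional CD4 sums of Oasl2 were 58.9, 109 and 94.1 CPM in ctr and 44.5, 19.03 and 54.7 CPM in cko. For Oasl2 the CD8 sums were 5.63, 6.49 and 9.21 CPM in ctr and 9.53, 2.62 and 9.16 CPM in cko. All 3 cko libraries lay below ctr in conventional CD4 cells, and the groups overlapped in Treg and CD8 cells. NK sums of Oasl2 were 5.96, 8.43 and 9.37 CPM in ctr and 14.7, 20.05 and 24.01 CPM in cko. For Oasl2 in macrophages the values were 175, 271 and 203 CPM in ctr and 196, 164 and 217 CPM in cko. In cDC they were 73, 126 and 109 CPM in ctr and 138, 86.3 and 117 CPM in cko. In NK cells all 3 cko libraries lay above ctr; in macrophages and cDC the groups overlapped. In log2 terms Oasl2 differed between genotypes by -0.47 (SE 0.28) in Treg cells, -1.24 (SE 0.34) in conventional CD4 cells, -0.01 (SE 0.47) in CD8 cells, 1.17 (SE 0.26) in NK cells, -0.08 (SE 0.16) in macrophages and 0.15 (SE 0.25) in cDC (edgeR adjusted p from 0.0143 to 0.993). Oasl2 rose in NK cells of cko (edgeR adjusted p = 0.0143) and passed in no other class, except in conventional CD4 cells without the filter (0.00454, lower). The NK call of Oasl2 was lost without cko 3 (edgeR adjusted p = 0.117) and in cluster-based classes (0.265), and DESeq2 gave no adjusted p for it. Its counts in NK cells were low: ctr libraries held 33, 24 and 52 UMIs, and cko libraries held 23, 21 and 46.

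Other antiviral effectors act at the membrane, on nucleotides or on RNA. Bst2, which tethers budding virus particles to the cell surface, measured 349.9, 472 and 465 CPM in ctr and 414, 262 and 444 CPM in cko in Treg cells. Conventional CD4 cells had 457, 504 and 603 CPM in ctr and 427, 181 and 413 CPM in cko. For Bst2 the CD8 sums were 198, 258 and 307 CPM in ctr and 428, 168 and 372 CPM in cko. In conventional CD4 cells the cko values were all below ctr; in Treg and CD8 cells the groups overlapped, and cko 2 was lowest in each. NK sums of Bst2 were 159, 184 and 206 CPM in ctr and 220.3, 154 and 230.2 CPM in cko. For Bst2 in macrophages the values were 692, 851 and 939.6 CPM in ctr and 828, 526 and 842 CPM in cko. In cDC Bst2 gave 429, 414 and 401 CPM in ctr and 553, 398 and 532 CPM in cko. The groups overlapped in all 3, with cko 2 lowest in each. Bst2 had log2 fold changes of -0.21 (SE 0.21) in Treg cells, -0.68 (SE 0.29) in conventional CD4 cells, 0.31 (SE 0.37) in CD8 cells, 0.00 (SE 0.14) in NK cells, -0.09 (SE 0.20) in macrophages and 0.27 (SE 0.16) in cDC, at edgeR adjusted p from 0.487 to 0.992. None passed. Slfn5, of the Schlafen family of growth regulators, measured 5.96, 7.02 and 9.37 CPM in ctr and 16.01, 11.5 and 18.8 CPM in cko in NK cells, with all cko values above ctr. Slfn5 rose there by a log2 fold change of 0.93 (SE 0.27, adjusted p = 0.0499) in edgeR, at the edge of the threshold. The call was lost without ctr 1, ctr 2, ctr 3, cko 1 or cko 3 (adjusted p from 0.0545 to 0.234), with cko 1 and cko 3 added (0.122), with RLE size factors (0.0504) and in cluster-based classes (0.175). Isg20 measured 371, 412 and 412 CPM in ctr and 226, 130.1 and 252 CPM in cko in Treg cells, all cko values below ctr, with a log2 fold change of -0.98 (SE 0.22, adjusted p = 0.0745) in edgeR. The 9 effectors had a median log2 fold change of -0.35 in Treg cells, where none passed, and of 0.31 in CD8 cells, where none passed.

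The transcription factors of the list carry the signal itself. Irf7, which amplifies interferon production once induced, measured 129.6, 208 and 213 CPM in ctr and 183, 87.8 and 172 CPM in cko in Treg cells. Its level in conventional CD4 cells was 302, 401 and 455 CPM in ctr and 309, 125 and 281 CPM in cko. For Irf7 the CD8 sums were 84.8, 133 and 164 CPM in ctr and 168, 76.97 and 164 CPM in cko. The lowest libraries were ctr 1 and cko 2 in Treg and CD8 cells, and the groups overlapped in all 3 classes. NK sums of Irf7 were 72.7, 123 and 107 CPM in ctr and 162, 82.1 and 175 CPM in cko. For Irf7 in macrophages the values were 609, 922 and 735 CPM in ctr and 563, 380.4 and 561 CPM in cko. The cDC sums gave 216, 299 and 176 CPM in ctr and 332, 192 and 281 CPM in cko for Irf7. In macrophages the 3 cko libraries were below the 3 ctr libraries; in NK cells and cDC the groups overlapped. The log2 fold changes of Irf7 were -0.32 (SE 0.31) in Treg cells, -0.76 (SE 0.31) in conventional CD4 cells, 0.07 (SE 0.37) in CD8 cells, 0.37 (SE 0.32) in NK cells, -0.50 (SE 0.19) in macrophages and 0.23 (SE 0.26) in cDC, with edgeR adjusted p from 0.106 to 0.947. None passed. Irf7 did pass as lower in macrophages with DESeq2 (adjusted p = 0.0358) and in edgeR without ctr 1 (0.0445), and in conventional CD4 cells without the filter on low counts (0.0375).

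Stat2, the partner of IRF9 in the ISRE-binding complex, measured 34.97, 54.8 and 51.7 CPM in ctr and 41.5, 34.8 and 34.6 CPM in cko in Treg cells. Conventional CD4 sums of Stat2 were 72.8, 54.7 and 97.2 CPM in ctr and 52.8, 39.01 and 35.95 CPM in cko. For Stat2 the CD8 sums were 23.8, 30.4 and 36.5 CPM in ctr and 35.6, 24.8 and 37.8 CPM in cko. In conventional CD4 cells the cko values were all below ctr; in Treg and CD8 cells the groups overlapped. NK sums of Stat2 were 17.5, 28.1 and 27.9 CPM in ctr and 36.5, 33.4 and 42.8 CPM in cko. For Stat2 in macrophages the values were 90.1, 136 and 113 CPM in ctr and 99.3, 83.5 and 111 CPM in cko. In cDC they were 77.6, 98.6 and 74.7 CPM in ctr and 97.1, 67.7 and 89.9 CPM in cko. In NK cells the cko values were all above ctr, and in macrophages and cDC the groups overlapped. In log2 terms Stat2 differed between genotypes by -0.37 (SE 0.18) in Treg cells, -0.96 (SE 0.27) in conventional CD4 cells, 0.09 (SE 0.19) in CD8 cells, 0.51 (SE 0.19) in NK cells, -0.12 (SE 0.15) in macrophages and 0.02 (SE 0.20) in cDC (edgeR adjusted p from 0.122 to 0.985). None passed. Of the remaining roles, the sensors of RNA and DNA (Ifih1, Dhx58 and Zbp1) had medians of -0.43 in Treg, -0.67 in conventional CD4, 0.28 in CD8, 0.24 in NK, -0.33 in macrophage and 0.11 in cDC sums, with none called. Of the other induced genes (Rtp4, Trim30a, Phf11b, Phf11d and Ifi35) none was called either, with medians from -0.55 in conventional CD4 cells to 0.16 in NK cells. The complex of Parp9, Dtx3l and Parp14, which modifies proteins with ADP-ribose, had medians of -0.20, -0.46, 0.25, 0.16, -0.01 and 0.15 in the same order of classes, with none called.

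**Figure D3:**
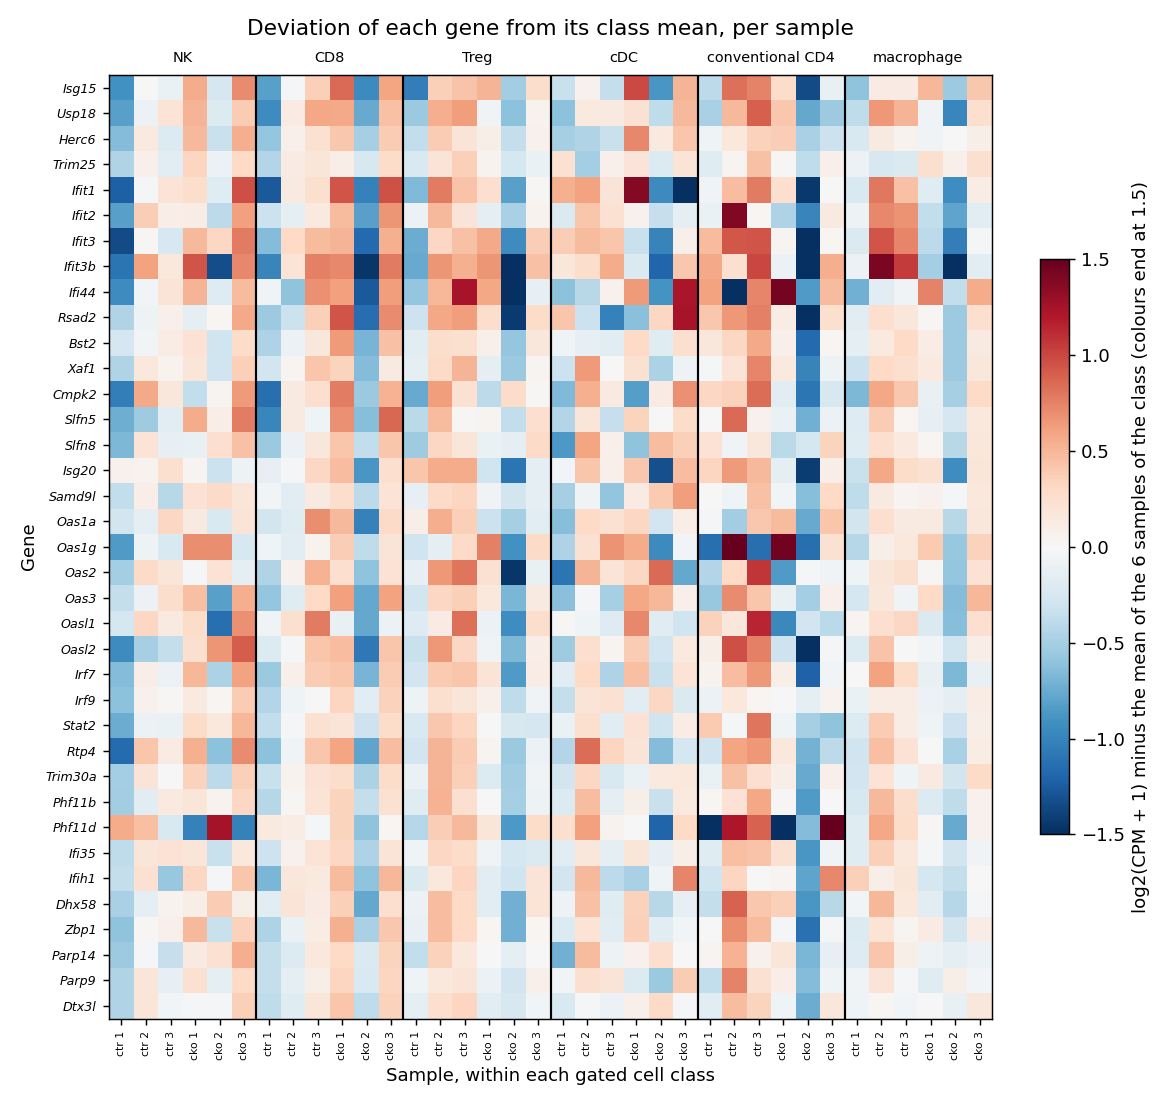
Deviation of log2(CPM + 1) from the mean of the 6 libraries of a class (colour, ending at 1.5) for the 37 genes (rows, by role) in each library and class (columns). The columns of ctr 1 and cko 2 are blue over most rows of the T cell and macrophage blocks.

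Whether the genotype difference itself differed between classes was tested for 2 pairs of classes from the same libraries. The difference was higher in Treg than in conventional CD4 cells for 2 of 36 members and lower for none, where 0.956% of all tested genes differed. The members were Isg15 (difference of log2 fold changes, Treg minus conventional CD4, 0.93, SE 0.15, adjusted p = 0.000137) and Ifit3 (1.42, SE 0.25, adjusted p = 0.000693) in edgeR. For Isg15 the separate log2 fold changes were 0.09 in Treg cells and -0.77 in conventional CD4 cells, and for Ifit3 they were 0.02 and -1.33. Both stayed past the threshold in 9 of 9 alternatives, with adjusted p from 1.64e-06 to 0.00544 for Isg15 and from 9.59e-07 to 0.0105 for Ifit3. These 9 all used the gated classes, and DESeq2, cluster-based classes and kept doublets were not among them. The median over the members was 0.22 against -0.03 over all genes. Conventional CD4 cells that fell in Treg clusters made up 5.49% to 8.48% of the gated cells in ctr and 24.8%, 8.54% and 25.6% in cko 1, 2 and 3, and the part of this mixture in the difference was not tested. The class was also made up differently in cko 2, where 52 of 199 gated cells fell in conventional CD4 clusters, against 44 of 59, 24 of 39 and 126 of 164 in ctr, 73 of 125 in cko 1 and 65 of 129 in cko 3. Plasmacytoid dendritic markers in these sums reached 48.5 CPM in cko 2 against at most 3.47 CPM in ctr, and their part was not tested.

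Between macrophages and CD8 cells few members differed in their genotype difference. It was lower in macrophages for 3 of 37 members and higher for none, where 7.17% of all tested genes differed (3.91% lower, 3.26% higher), with a median of -0.26 against -0.06 over all genes. The share of members called, 3 of 37, was near that of all genes. The 3 are Ifit3b (macrophage minus CD8 -1.70, SE 0.28, adjusted p = 0.00799), Ifit2 (-1.10, SE 0.24, adjusted p = 0.0256) and Ifit3 (-0.88, SE 0.22, adjusted p = 0.0452) in edgeR, and Ifit1, the remaining IFIT gene, did not pass (-1.29, edgeR adjusted p = 0.0735). In CD8 cells Ifit2 measured 17.4, 19.8 and 24.5 CPM in ctr and 30.98, 12.2 and 35.6 CPM in cko. Ifit3b measured 11.9, 28.3 and 41.96 CPM in ctr and 40.9, 8.27 and 42.7 CPM in cko there. Both overlapped between groups in CD8 cells, with cko 2 lowest. The count of lower members was 12 without cko 2, 1 without ctr 2, 1 without cko 3, 0 without cko 1, and 1 with cko 1 and cko 3 added. The 12 came with cko 1 and cko 3 as the whole cko group, and the share of all genes called there is not given. Ifit3b lost the call only without cko 1 (adjusted p = 0.0557). Ifit2 lost it without ctr 2, ctr 3, cko 1 or cko 3 (0.0548 to 0.123), with cko 1 and cko 3 added (0.0858) and without the filter on low counts (0.135), and Ifit3 kept it only without cko 2 (0.000858).

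Genes of the interferon pathway outside the list were taken from a list of 37 receptors, kinases, sensors, regulators and ligands. Between genotypes 1 of 27 was lower in Treg cells, none of 22 passed in conventional CD4 cells, 1 of 27 was higher in CD8 cells, 2 of 26 were higher in NK cells, 5 were higher and 7 lower of 31 in macrophages, and none of 25 passed in cDC. Over all tested genes 1.15% were lower in Treg cells, 1.23% higher in CD8 cells, 3.49% higher in NK cells, and 10.8% higher and 8.68% lower in macrophages; 0.204% changed in conventional CD4 cells and 1.85% in cDC. The receptor chain Ifnar1 measured 71.8, 84.6 and 71.9 CPM in ctr and 131, 127 and 129 CPM in cko in NK cells. All cko values were above ctr, and Ifnar1 rose there (log2 fold change 0.62, SE 0.11, adjusted p = 0.00435, edgeR). It stayed past the threshold in 13 of 13 alternatives. In macrophages Ifnar1 also rose (log2 0.34, edgeR adjusted p = 0.0342), with 85.7, 104 and 95.4 CPM in ctr and 112, 119 and 109.6 CPM in cko, but the call was lost without ctr 1, ctr 3, cko 1, cko 2 or cko 3 (0.0691 to 0.112) and with cko 1 and cko 3 added (0.0799). The partner chain Ifnar2 did not pass in any class (log2 fold changes -0.14 to 0.24, edgeR adjusted p 0.226 to 0.975), nor did Jak1 (-0.10 to 0.18, 0.258 to 0.978) or Tyk2 (-0.51 to 0.35, 0.199 to 0.998). Ifngr1, the ligand-binding chain of the interferon gamma receptor, measured 477, 349.9 and 405 CPM in ctr and 683, 570.0 and 697 CPM in cko in CD8 cells and rose there (log2 fold change 0.63, SE 0.13, adjusted p = 0.0493, edgeR). In NK cells it measured 554, 503 and 479.5 CPM in ctr and 655, 725 and 876 CPM in cko and rose too (log2 fold change 0.41, SE 0.11, adjusted p = 0.0402, edgeR). Leaving out ctr 2, ctr 3, cko 1 or cko 3 ended both calls, and cko 2 also that in NK cells, with adjusted p from 0.0510 to 0.232. Adding cko 1 and cko 3 ended both as well (0.192 in CD8 and 0.0717 in NK cells). The CD8 call was also lost with RLE size factors (0.0512), with doublets kept (0.0516) and in cluster-based classes (0.153), so it held in 5 of 13 alternatives, and that in NK cells in 7 of 13.

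In macrophages Socs1, the feedback inhibitor of the JAK kinases, measured 63.95, 58.03 and 69.8 CPM in ctr and 89.5, 119 and 102 CPM in cko. It rose in cko (log2 fold change 0.77, SE 0.12, adjusted p = 0.00117, edgeR), without overlap. Library cko 2 had the highest Socs1 and the lowest interferon score of the macrophage sums, and ctr 2 had the lowest Socs1 and the highest score (7.14). Library cko 3 had the next highest Socs1 and a score of 6.93. Whether Socs1 and the score were related was not tested. Also higher in cko macrophages were the kinase Ikbke (0.56) and the MHC class I regulator Nlrc5 (0.47). Lower were the sensors and adaptors Cgas (-0.78), Tlr7 (-0.79), Tlr9 (-0.63), Ticam1 (-0.66), Mavs (-0.55) and Myd88 (-0.46), and the feedback inhibitor Socs3 (-0.49), all on the log2 scale. With 1 library left out Socs1, Socs3, Cgas and Ticam1 kept their calls. Those of Ikbke, Nlrc5, Tlr7, Tlr9, Mavs and Myd88 were lost in at least 1 of 13 alternatives, with the highest adjusted p from 0.0644 for Nlrc5 (without cko 1) to 0.182 for Mavs (without cko 1). With cko 1 and cko 3 added, Ikbke, Tlr7, Tlr9, Mavs and Myd88 did not pass (0.0614 to 0.0953). In Treg cells Irf8, a transcription factor of the interferon regulatory family, measured 93.6, 103 and 102 CPM in ctr and 39.7, 35.5 and 50.9 CPM in cko. All cko values were below ctr, and Irf8 fell (log2 fold change -1.26, SE 0.14, adjusted p = 0.0046, edgeR); the macrophage markers in the same sums were also lower, at 347 to 464 CPM in cko against 728 to 852 CPM in ctr, and their part in it was not tested. Irf1, an early target of both interferon types, did not pass in any class (log2 fold changes -0.11 to 0.59, edgeR adjusted p 0.108 to 0.986).

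The interferon ligands of the pathway list other than Ifng were scarce in these cells. Ifnb1, encoding interferon beta, was counted at 332 UMIs in macrophages in all, or 15.5, 3.31 and 14.3 CPM in ctr and 1.25, 3.88 and 1.69 CPM in cko. The groups overlapped, with ctr 1 and ctr 3 highest (log2 fold change -2.25, SE 0.85, adjusted p = 0.132, edgeR), and ctr 1, the library with the lowest ctr score, had the highest Ifnb1 level. Each other class held 0 to 3 Ifnb1 UMIs, and Ifna1, Ifna2, Ifna4, Ifnl2 and Ifnl3 had 0 to 15 UMIs in any single class. Ifng, the interferon gamma gene, lay between 429.8 and 675.8 CPM in the CD8 cells of all 6 libraries and did not pass in any of the 5 classes where it was tested (log2 fold changes -0.01 to 0.78, edgeR adjusted p 0.200 to 0.987). The genotype difference of Socs1 was higher in Treg than in conventional CD4 cells (1.23, edgeR adjusted p = 4.43e-05), as was that of Socs3 (1.02, 0.0131), which lost the call without ctr 2, ctr 3, cko 2 or cko 3 (0.0569 to 0.114). Between macrophages and CD8 cells it was higher in macrophages for Socs1 (1.04) and the phosphatase Ptpn6 (0.70) and lower for Ifngr1 (-0.62). Leaving out cko 1 or cko 3 ended the calls of Ptpn6 (edgeR adjusted p = 0.0601 and 0.0673), and leaving out ctr 1, ctr 2, ctr 3, cko 1 or cko 3 ended that of Ifngr1 (0.0512 to 0.133). With cko 1 and cko 3 added both were lost (0.0547 for Ptpn6 and 0.116 for Ifngr1).

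Single cells were then scored for the programme. Each cell of at least 2000 UMIs was thinned to 2000 UMIs and scored by its UMIs from the 37 members, and a cell was called high-scoring at 23 UMIs or more, the smallest score that at most 10% of ctr cells (libraries weighted equally) reached. It is a range of a continuous score and not a cell type. Since the cells were chosen by their member UMIs, their excess of these UMIs follows from the choice, and the shares are a description. Among CD8 cells 537 of 9568 (5.61%) were high-scoring and held 34.3% of all member UMIs. Among macrophages 984 of 5271 (18.7%) were high-scoring and held 47.1%. The corresponding values were 154 of 2691 Treg cells with 29.8% of the UMIs, 66 of 653 conventional CD4 cells with 45.4%, 25 of 1614 NK cells with 11.7% and 12 of 455 cDC with 11.9%. In all 6 classes most member UMIs thus lay in cells below the threshold. The median score was 33 in high-scoring and 3 in other CD8 cells, and 32 and 9 in macrophages. In each sample the CD8 median stayed at 2 to 3 while the 90th percentile ran from 7.9 to 20, and in macrophages the median ran from 7 to 12 and the 90th percentile from 19 to 37. Just inside the threshold (a score of 23) were 39 CD8 cells and 75 macrophages, and just outside (22) were 36 and 76. Before thinning, high-scoring cells were not deeper than others, with medians of 6229 against 7464 UMIs in CD8 cells and 7479 against 8508 in macrophages.

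**Figure D4:**
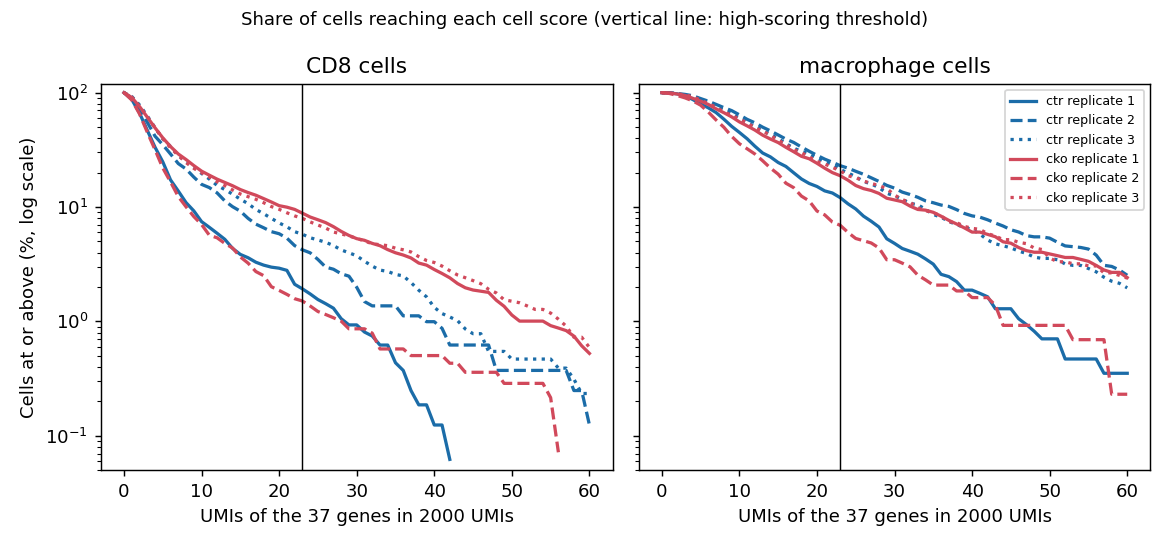
Percent of cells (y axis, log scale) at or above each cell score (x axis, member UMIs in 2000 UMIs) for CD8 cells and macrophages, 1 line per library, with a vertical line at 23. The curves of ctr 1 and cko 2 drop fastest in both classes, and the libraries separate at high scores more than at low ones.

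The share of high-scoring cells varied widely between libraries. In macrophages it was 12.1%, 23.0% and 21.3% in ctr and 18.8%, 6.93% and 20.7% in cko (18.8 ± 5.89% and 15.5 ± 7.48%, SD, n = 3 each). In CD8 cells it was 1.93%, 4.23% and 5.78% in ctr and 8.84%, 1.51% and 7.96% in cko (3.98 ± 1.94% and 6.10 ± 4.004%). Both overlapped, with ctr 1 and cko 2 lowest. In Treg cells the share was 2.48%, 7.39% and 7.32% in ctr and 5.30%, 2.19% and 8.62% in cko. With 1 library left out, the difference in mean share (cko minus ctr) ran from -6.69 to 0.952 percentage points in macrophages and from -1.99 to 1.23 in Treg cells, so both signs turned. The share was 10.5%, 13.5% and 16.2% in ctr and 13.7%, 1.76% and 9.68% in cko in conventional CD4 cells. In Treg and conventional CD4 cells the groups overlapped too, with cko 2 lowest, but the order of the other libraries was not that of the scores: cko 3 had the highest Treg share. In NK cells the share was 0.457%, 2.02% and 1.11% in ctr and 1.83%, 1.89% and 3.88% in cko, with overlap. In cDC it was 2.42%, 1.79% and 1.32% in ctr and 5%, 2.99% and 5.56% in cko, without overlap, on 1 to 3 high-scoring cells per library. No test was made on these shares, which are from 3 libraries a group.

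High-scoring cells carried many members at once, which the score itself favours. They had a median of 16 members detected against 3 in other CD8 cells and 16 against 6 in other macrophages. Isg15 was detected in 96.6% of high-scoring and 20.4% of other CD8 cells after thinning, and Bst2 in 93.9% and 33.6%. Rsad2, which makes an RNA chain terminator, was detected in 52.0% and 2.84% of CD8 cells and in 59.2% and 17.1% of macrophages. The CD8 cells with a paired receptor and a high score were counted by clonotype: 18, 29 and 65 such cells in 16, 22 and 47 clonotypes in ctr, and 160, 18 and 134 cells in 38, 16 and 36 clonotypes in cko. Of the clonotypes with at least 10 cells, 7 of 27, 4 of 12 and 14 of 20 held a high-scoring cell in ctr and 14 of 17, 6 of 27 and 11 of 20 in cko, and none was high-scoring throughout. Genes outside the list, chosen here after their values were seen, stood at other levels in these cells. In CD8 cells the lymph node homing receptor Ccr7 had a median over libraries of 15.7 CPM in high-scoring against 117 CPM in other cells and the inhibitory receptor Havcr2 had 49.5 against 125 CPM, each higher in none of 6. In macrophages the monocyte marker Ly6c2 had 5445 against 2742 CPM and the chemokine Cxcl10 2062 against 538 CPM, higher in 6 of 6 libraries. The mannose receptor Mrc1 had 14.6 against 45.8 CPM and the MHC class II gene H2-Aa 6780 against 10320 CPM in macrophages, higher in none of 6. The monocyte chemokine receptor Ccr2 had 345 against 329 CPM and the complement gene C1qa 1901 against 1840 CPM there, each higher in 3 of 6 libraries, and Arg1 was higher in 1 of 6. In CD8 cells Gzmb was higher in 5, Tcf7 in 3, Pdcd1 in 2 and Mki67 in none of 6.

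Genes outside the list whose level followed the score most closely over the 36 class sums, both centred within their class, were Tgtp2 (Pearson r 0.90), Ifi213 (0.90), Ddx58 (0.89), Mndal (0.85), Phf11a (0.84), Trafd1 (0.84), Rnf213 (0.83), Rnf114 (0.83), Ifi209 (0.82) and Tor3a (0.82), out of 5532 genes tested in every class. Ddx58 encodes the RNA sensor RIG-I. The 36 sums come from 6 libraries and share their depth, so these values are a description.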

How the data were processed

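The authors deposited whole-number counts of UMIs per gene and cell barcode for 6 libraries of 10x 5′ single-cell RNA sequencing, with T cell receptor contigs, and the submitters' processing notes name Cell Ranger 7.0.0, GRCm38 and mm10. The members, the pathway list and the marker lists were chosen with earlier results of these data known. Of 41679 barcodes, 39424 passed the filters (300 genes or more, 500 UMIs or more, and no more than 10% of counts from mitochondrial genes). Scrublet's own threshold marked only 147 barcodes (0.353%), so the highest doublet scores were removed in a share that grew with the number of barcodes of the library (2276 cells in all), leaving 37148 cells. Cells were gated on raw UMIs of lineage markers, and 10 cells that met 2 gates were left out. Counts were summed per class and library, and each sum holds at least 20 cells.

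The sums were tested with edgeR 4.0.16 (TMM, filterByExpr, robust quasi-likelihood F test) in R 4.3.3, with Benjamini-Hochberg adjustment over all tested genes and a threshold of 0.05. Genotype was fitted within each class on 3 libraries against 3, and class contrasts and differences between classes kept the library as a block. The p-values measure the spread between these libraries, and those of cko 1 and cko 3 shared clones. The genotype fit was run on simulated counts for Treg, CD8 and macrophage sums, with the same spread for all genes and no library that stood apart. Class contrasts and differences between classes were not simulated. DESeq2 1.42.0, RLE size factors, no filter, a replicate block, each library left out, cko 1 and cko 3 added, classes from scanpy 1.11.5 clusters and no doublet removal were the alternatives for the genotype tests within a class. Differences between classes were rerun only with no filter, RLE size factors, each library left out, and cko 1 and cko 3 added. Class contrasts were rerun with DESeq2, no filter, RLE size factors and each library left out. Cluster classes were not used for cDC, whose clusters held 18 and 16 cells in cko 1 and cko 2. Leaving out ctr 1 and cko 2 together was tried and discarded, because those libraries had been picked by their scores. UMIs in a droplet can include free RNA from other cells.

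Genes named in the text are the members past the threshold in a class, 8 members whatever their result (Isg15, Ifit1, Ifit3, Oasl2, Irf7, Bst2, Usp18 and Stat2), the 4 largest changes in each direction of a class contrast, and set pathway genes; 1 gene of the pathway list is in its counts and otherwise not reported here. Ifit2, Ifit3b, Isg20 and Herc6 were added after their values were seen. Promoters came from a RefSeq table and gene positions from GENCODE, and 30 of the 37 members had a promoter.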

Additional observations from a re-analysis of the deposited data

Results flagged for a closer look

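The genotype difference differed between classes for 5 members by a test of the difference itself, an interaction term in edgeR with the library as a block. For Isg15 the log2 fold change (cko over ctr) was higher in Treg than in conventional CD4 cells by 0.93 (SE 0.15, adjusted p = 0.000137), and for Ifit3 by 1.42 (SE 0.25, adjusted p = 0.000693). The ratio of Treg to conventional CD4 level thus moved in these genes while neither class alone passed the genotype test.

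Between macrophages and CD8 cells the difference was -1.70 for Ifit3b (SE 0.28, adjusted p = 0.00799), -1.10 for Ifit2 (SE 0.24, adjusted p = 0.0256) and -0.88 for Ifit3 (SE 0.22, adjusted p = 0.0452). The 3 of 37 members called are near the 7.17% of all tested genes. Ifit3b passed in 8 of 9 alternatives, Ifit2 in 3 and Ifit3 in 1, and with cko 1 and cko 3 added neither Ifit2 nor Ifit3 passed, whereas Isg15 and Ifit3 passed in 9 of 9 in the comparison of Treg with conventional CD4 cells. All of these alternatives used the gated classes, not cluster-based ones. Reads of Ifit3 and Ifit3b could be split between these near-identical copies, so they are not independent of each other.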

How the results depend on the processing

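Conventional CD4 cells and cDC had the fewest cells and UMIs, and each group had 3 libraries. Of the values for whole comparisons, 312 stayed within the tolerance (counts within 1.5 times, differences in score or share within 1 SD between libraries, whatever their sign) and 45 moved; of those for single genes, 908 stayed on their side, 105 lost the call, 9 gained it and 53 changed sign. The cause of these moves was not tested.

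The Treg count (1 lower) was 2 with DESeq2 and 0 with RLE size factors, with the replicate block, with cko 1 and cko 3 added and with doublets kept. The NK count (2 higher) was 0 with DESeq2, which gave both called genes no adjusted p, 1 with RLE, 4 without the filter, 4 with the replicate block and 1 with cko 1 and cko 3 added; 1 member was lower in NK cells without the filter, with the replicate block and in cluster classes. Conventional CD4 cells had 4 lower members without the filter. Macrophages had 2 higher and 2 lower with DESeq2 and 1 lower without the filter, and cDC had 1 higher without it. Lower members of the macrophage minus CD8 difference numbered 1 with cko 1 and cko 3 added. Treg against conventional CD4 cells had 13 lower with DESeq2. The NK difference in high-scoring share (1.34 points) was -0.169 with the 5% threshold, and that of cDC (2.67 points) was 0.574 with members detected.

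Signs turned for genes near 0. Adding cko 1 and cko 3 gave -0.0653 for Isg15 and -0.15 for Ifit3 in Treg cells, -0.22 for Ifit3, -0.10 for Irf7 and -0.0539 for Usp18 in CD8 cells, -0.0727 for Bst2 in NK cells and -0.0439 for Stat2 in cDC. The replicate block gave -0.0229 for Ifit3 in Treg cells, -0.0886 for Ifit3 in CD8 cells and -0.0098 for Bst2 in NK cells. Bst2 in NK cells was -0.0184 with DESeq2, -0.0031 with RLE, -0.0374 without the filter and -0.18 in cluster classes, where Ifit3 in Treg cells was -0.30. Stat2 in cDC was -0.0144 without the filter and -0.0374 with doublets kept. Same-numbered libraries deviated together weakly or not at all (correlations -0.057 to 0.143). A ctr library correlated best with the cko library of its own number for 3 of 3 in conventional CD4 cells. The same held for 1 of 3 in macrophages and 2 of 3 in each other class. Whether the replicate block pairs more than numbers was not tested.

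With 1 library left out, counts ranged from 0 to 2 (Treg lower), 0 to 1 (conventional CD4 lower), 0 to 1 (CD8 higher), 0 to 2 (NK higher), 1 to 3 and 0 to 6 (macrophage higher and lower) and 0 to 2 (cDC higher). They ranged from 0 to 1 higher and 0 to 12 lower for macrophage minus CD8, 12 to 24 for Treg against conventional CD4 cells, 15 to 25 for NK against CD8 lower, and 0 to 1 for macrophage against CD8 lower. Log2 fold changes ranged in Treg cells from -0.24 to 0.35 for Isg15 and -0.26 to 0.38 for Ifit3. In CD8 cells they ranged from -0.27 to 0.39 for Ifit3, -0.29 to 0.37 for Oasl2, -0.15 to 0.35 for Irf7, -0.20 to 0.50 for Usp18 and -0.0581 to 0.25 for Stat2, and in NK cells from -0.0933 to 0.15 for Bst2. In macrophages the range was -0.21 to 0.10 for Oasl2, -0.21 to 0.10 for Bst2 and -0.25 to 0.0222 for Stat2. In cDC it was -1.90 to 0.17 for Ifit1, -0.0655 to 0.37 for Oasl2, -0.0086 to 0.45 for Irf7, -0.0101 to 0.48 for Usp18 and -0.15 to 0.20 for Stat2.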
